A study of Rattus norvegicus with 7 samples.

Results

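Connecting tubule nuclei without a high level of Slc12a3 numbered 983 of 30746 retained nuclei from the kidneys of 7 rats. A nucleus was counted as a member when it held at least 3 UMIs (unique molecular identifiers, each standing for 1 captured transcript) of Calb1 and Trpv5 together, at least 1 UMI of Slc8a1 and under 40 UMIs of Slc12a3 per 10000. Retained nuclei were barcodes with at least 200 genes, at most 10000 UMIs and at most 5% mitochondrial UMIs, out of 37048 barcodes in the deposited matrices. Calb1 encodes the calcium buffer calbindin-D28k, Trpv5 the apical calcium channel and Slc8a1 the basolateral sodium-calcium exchanger. These 3 genes and Slc12a3, the thiazide-sensitive sodium-chloride cotransporter, chose the nuclei, so their levels are given as a description without a test.

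The rats belong to the HSRA line, in which animals can be born with a single kidney, and all were 4 weeks old. Sample titles name 3 libraries as 1 kidney and 4 as 2 kidneys, and the protocol counts 3 HSRA-S and 4 HSRA-C animals without tying either name to a title. No treatment, allele or sex is named in the labels. Nuclei came from archived tissue of a central section with both cortex and medulla, and droplets were made with a 3' single-cell kit from 10x Genomics. The names of 2-kidney replicates 3 and 4 contain P1117B and those of the other 5 libraries P1117. The labels do not explain this, it is treated below as a library set, and since P1117B holds no 1-kidney library the set and the group cannot be told apart there. Each title carries its own number, and each library was taken as 1 animal.

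The connecting tubule joins the distal convoluted tubule to the collecting duct. Its principal-like cells reabsorb calcium through Trpv5, calbindin and Slc8a1 or the plasma membrane calcium pumps. They also take up sodium through the epithelial sodium channel (subunits Scnn1a, Scnn1b and Scnn1g) under aldosterone, which acts through the mineralocorticoid receptor Nr3c2 where the enzyme Hsd11b2 removes glucocorticoids. The late distal convoluted tubule shares the calcium genes and adds Slc12a3 and the magnesium channel Trpm6, while principal cells of the collecting duct add the water channel Aqp2.

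Members numbered 70, 214 and 143 in 1-kidney replicates 1 to 3, and 111, 118, 190 and 137 in 2-kidney replicates 1 to 4. The libraries differed in size, with 2250 retained nuclei in 1-kidney replicate 1 and 4222 to 5896 in the others except 2-kidney replicate 1, which had 3848. Members held a median of 2834 to 3667 UMIs and 1582 to 1950 genes per library, and 3917968 UMIs in all. Mitochondrial UMIs took a median of 0.158% to 1.23% of a member's total. Of the retained barcodes 104 occurred in more than 1 library, 6 of them as members, and none was a member in more than 1 library.

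Calb1 carried most of the selection. Both Calb1 and Trpv5 were detected in 508 members (51.7%), Calb1 alone in 472 and Trpv5 alone in 3. The summed members held 1662, 1450 and 1829 CPM of Calb1 in the 1-kidney libraries, and 2343, 1738, 2234 and 2130 CPM in the 2-kidney libraries (CPM, the UMIs of a gene scaled to 1e6 UMIs of the summed nuclei). For Slc8a1 the values ran from 12450 to 16800 CPM and from 18070 to 30440 CPM. The 2 groups did not overlap for Slc8a1 and overlapped for Calb1, and since both genes chose the nuclei nothing is read from either. Residual Slc12a3 stood at 873 to 905 CPM in the 1-kidney and 537 to 733 CPM in the 2-kidney members, also without overlap, against 9183 to 10780 CPM in late distal convoluted tubule nuclei. No Slc12a3 UMI was found in 424 members (43.1%).

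The bounds cut through a continuum. Of the members 185 held exactly 3 UMIs of Calb1 and Trpv5, and Slc8a1 stood at 80.6 per 10000 UMIs in them. Another 317 nuclei with exactly 2 such UMIs met every other criterion, and there Slc8a1 stood at 48.5 per 10000. At 5 or more UMIs, in 669 members, Slc8a1 reached 255 per 10000. At the Slc12a3 bound, 116 members lay between 20 and 40 per 10000 and 73 excluded nuclei between 40 and 60.

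A large part of the members carried proximal tubule RNA. Slc34a1, the sodium-phosphate cotransporter of the proximal tubule, was at 100 or more per 10000 UMIs in 368 of 983 members (37.4%), a bound chosen after the data were seen. The same level was met by 25.1% of late distal convoluted tubule, 18.5% of principal cell and 9.72% of podocyte nuclei. The 368 members had a median of 5644 UMIs against 2561 in the other 615. A doublet score marked 51 of the 368 (13.9%) and 32 of the 615 (5.20%). So the nuclei rich in Slc34a1 were also the larger ones and the ones more often marked as doublets.

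The 368 nuclei held fewer UMIs of some distal transcripts per nucleus, and these stood in other ratios. Slc8a1 averaged 51.6 UMIs per nucleus in them against 100.5 in the other members, Calb1 5.76 against 8.67 and Scnn1g 1.19 against 1.93, while Slc12a3 averaged 5.12 against 1.58. Per 100 UMIs of Slc8a1, the members below the Slc34a1 bound held 1.57 UMIs of Slc12a3, those above it 9.93 and late distal convoluted tubule nuclei 45.8. Trpm6 followed the same order with 1.09, 2.96 and 4.98 UMIs, and Scnn1a did not, with 1.61, 2.87 and 2.16. Principal cell nuclei, with 6.30 UMIs of Slc8a1 per nucleus, held 14.4 UMIs of Slc12a3 and 4.42 of Trpm6 per 100. A higher ratio is therefore not particular to the late distal convoluted tubule. Scnn1g differed little between the members, with 1.92 and 2.31 UMIs, and was at 0.574 in late distal convoluted tubule nuclei. The Slc12a3 bound is a share of all UMIs, so a nucleus with much Slc34a1 could pass it with more Slc12a3 per Slc8a1. These are sums over nuclei of 7 libraries and carry no test.

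Proximal RNA in the members went with the group and, among the 2-kidney libraries, with the library set. The share of members at or above the Slc34a1 bound was 48.6%, 55.1% and 40.6% in the 1-kidney libraries, and 33.3%, 39.0%, 24.2% and 21.2% in the 2-kidney libraries. The groups did not overlap, with means of 48.1% ± 7.30 (SD, n = 3) and 29.4% ± 8.21 (SD, n = 4) and an exact permutation p of 0.0571, two-sided. Within set P1117 the exact permutation p was 0.2, where 3 against 2 libraries cannot go below 0.1. In all retained nuclei the median Slc34a1 level was 89.7, 130 and 88.5 per 10000 UMIs in the 1-kidney libraries. It was 91.7 and 85.1 in 2-kidney replicates 1 and 2, and 39.2 and 25.1 in replicates 3 and 4, those of set P1117B. There the groups overlapped (exact permutation p = 0.2, and 0.7 within set P1117). The summed level of 17 proximal markers, none of them at 0, ran from 27390 to 38080 CPM in the 1-kidney and from 13470 to 26810 CPM in the 2-kidney members. Below the bound the same sum was 3560 to 9247 CPM and 4092 to 6676 CPM, and the groups overlapped. Counts of calls below are therefore given for all members and for the 615 below the bound.

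**Figure D1:**
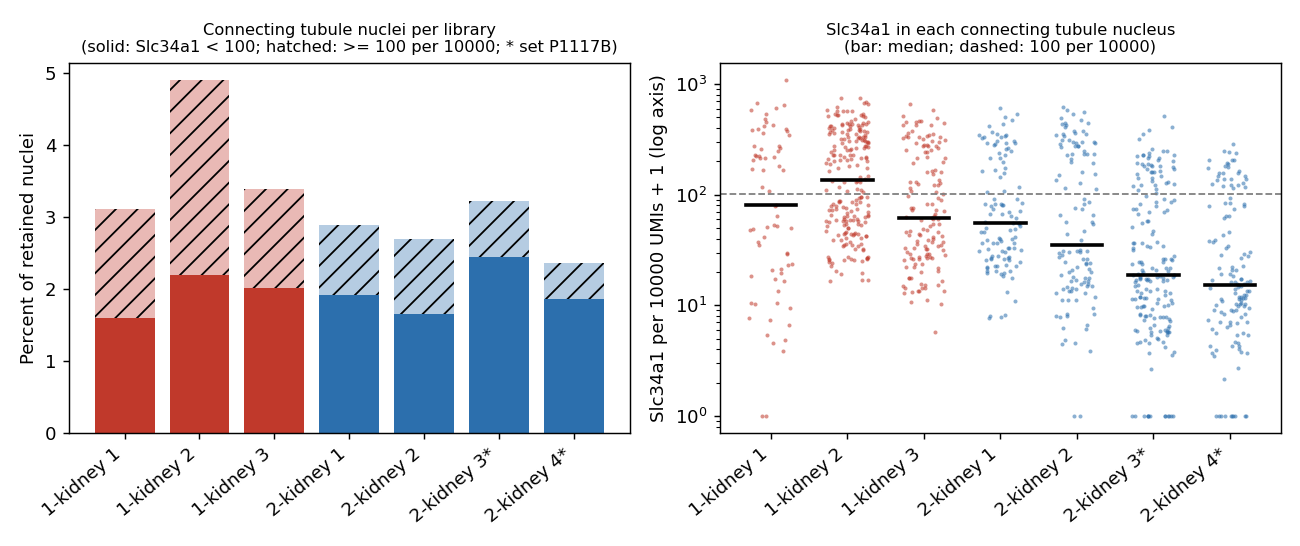
Left, percent of retained nuclei that were members in each of 7 libraries (red 1-kidney, blue 2-kidney), split into members with Slc34a1 under 100 per 10000 UMIs (solid) and at or above it (hatched). Right, Slc34a1 per 10000 UMIs plus 1 on a log axis for each member, with the library median as a bar and the bound as a dashed line. The solid parts lie between 1.6% and 2.44% in both groups, and the hatched parts are taller in the 1-kidney libraries.

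Members made up 3.11%, 4.90% and 3.39% of retained nuclei in the 1-kidney libraries, and 2.88%, 2.70%, 3.22% and 2.37% in the 2-kidney libraries. The highest share was that of 1-kidney replicate 2, and the groups overlapped. The means were 3.80% ± 0.963 (SD, n = 3) and 2.79% ± 0.357 (SD, n = 4), an exact two-sided permutation p of 0.0571, or 0.129 adjusted over 3 tests of shares, where 0.0286 is the smallest p possible. With Slc34a1 under the bound the means were 1.94% ± 0.306 and 1.97% ± 0.337 (SD, n = 3 and 4), and the sign turned (exact permutation p = 0.943). Within set P1117 it did not turn, with 1.94% ± 0.306 and 1.78% ± 0.197 (SD, n = 3 and 2; exact permutation p = 0.6). After thinning each nucleus to 1000 UMIs the shares were 3.29% ± 0.728 and 2.25% ± 0.525 (SD, n = 3 and 4; exact permutation p = 0.0857). Thinned and under the Slc34a1 bound they were 2.28% ± 0.266 and 1.91% ± 0.562 (SD, n = 3 and 4; exact permutation p = 0.286), without a turn of sign. In a share of nuclei, fewer connecting tubule cells and a smaller piece of cortex cannot be told apart. The proportion of all nuclei with the Calb1, Trpv5 and Slc8a1 criteria that lay below the Slc12a3 bound was 70.7% ± 4.06 and 70.8% ± 4.34 (SD, n = 3 and 4; exact permutation p = 0.943). With Slc34a1 under its bound it was 65.4% ± 7.24 and 67.8% ± 3.90 (SD, n = 3 and 4; exact permutation p = 0.571). This proportion rests on the rule genes alone, and the Slc12a3 bound counts all UMIs, proximal ones included.

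The label was checked against genes that the rule did not use. After thinning to 1000 UMIs, Scnn1g was detected in 35.6% of 954 members (95% Wilson interval 32.7% to 38.7%), in 9.95% of 382 late distal convoluted tubule nuclei and in 39.2% of 623 principal cell nuclei. In 1096 podocyte nuclei, which should lack the gene and serve as the measure of free RNA, the share was 1.28%. Before thinning, the share of members with Scnn1g was 63.1%, and the median depths were 3224 UMIs in members and 2574.5 in podocytes. The members therefore carried this sodium channel subunit well above the free RNA level. The 10 connecting tubule markers outside the rule, Scnn1g among them, summed to 1662 to 2753 CPM in members. That overlapped with 1246 to 2153 CPM in late distal convoluted tubule and 1400 to 2008 CPM in principal cell nuclei. Of these markers, Hsd11b2 was detected in 39.2% of thinned members and 20.4% of late distal convoluted tubule nuclei, Tfap2b in 16.6% and 15.4%, and Atp2b4 in 26.4% and 41.9%. Trpm6 was detected in 24.1% of thinned members, 59.2% of late distal convoluted tubule, 7.87% of principal cell and 4.197% of podocyte nuclei. Aqp2 was found in 19.4% of thinned members and 1.57% of late distal convoluted tubule nuclei. It was found in 78.3% of principal cell and 1.46% of podocyte nuclei. Those last 2 shares are no check, since at least 3 Aqp2 UMIs chose the principal cell nuclei and the podocyte class left such nuclei out. These intervals and shares cover counting error only.

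A further set of connecting tubule markers was at or near 0. S100g, which encodes calbindin-D9k, had 0 of 3917968 UMIs in the members, which allows up to 0.766 CPM of counted UMIs. It was at 0 in the other 3 classes too, and whether the annotation behind the counts covers its transcript end was not tested, so the 0 does not show that the gene is silent. Egfem1 had 2 UMIs, Trpv6, the sister channel of Trpv5, had 38, and Pvalb, a marker of the early distal convoluted tubule, had 1. Markers of other tubule types were present, and their part in the results was not tested. The 14 intercalated cell markers summed to 1431 to 2725 CPM in members against 97.2 to 611 CPM in podocytes, and none of the 14 was at 0. The 10 thick ascending limb markers summed to 1279 to 2345 CPM in members and 1350 to 2642 CPM in late distal convoluted tubule nuclei.

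The first gene comparison set the members against 398 late distal convoluted tubule nuclei, which met the same criteria but had Slc12a3 at 40 or more per 10000. Counts were summed per library and class and tested with the library as a block. The classes were split on Slc12a3 in these same nuclei, so the test says which other transcripts went with that split. Of 4766 genes 728 passed an edgeR adjusted p of 0.05 (15.3%), 414 higher (8.69%) and 314 lower (6.59%) in the members. With Slc34a1 under the bound in both classes 427 of 3805 genes passed (11.2%), 220 higher (5.78%) and 207 lower (5.44%), and 322 of the 728 were called again. Without the library block 206 passed, all of them among the 728.

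Of the sodium channel subunits Scnn1b and Scnn1g were higher in the members and Scnn1a was lower. Scnn1g stood at 392.1, 296 and 375 CPM in the 1-kidney members and at 567, 459, 455 and 441 CPM in the 2-kidney members. In the late distal convoluted tubule it ran from 89.0 to 193 CPM, so no library overlapped. The log2 difference was 1.72 ± 0.13 (SE; edgeR adjusted p = 1.1e-16), and 2.34 below the Slc34a1 bound. Scnn1b was higher by 0.97 ± 0.12 and Hsd11b2 by 1.27 ± 0.13 on the log2 scale, each in 7 of 7 libraries. Nedd4l, the ubiquitin ligase that removes the channel from the membrane, was higher by 0.32 ± 0.08 in 7 of 7. The alpha subunit Scnn1a went the other way at -0.28 ± 0.10 (edgeR adjusted p = 0.035), and below the Slc34a1 bound its difference was 0.05 and was not called. Leaving out 1-kidney replicate 1 or 2 or 2-kidney replicate 3 also ended the Scnn1a call. Nr3c2 did not pass in all members (-0.04 ± 0.07) and was higher by 0.33 ± 0.09 below the bound (edgeR adjusted p = 0.0053). Sgk1, which encodes the kinase that counters Nedd4l, did not pass (0.04 ± 0.12).

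Trpm6, several kinases of the cascade that controls Slc12a3 and some other magnesium genes were lower in the members. Trpm6 averaged 323 ± 66.6 CPM in the members and 1049 ± 175 CPM in the late distal convoluted tubule (SD over 7 libraries), lower in 7 of 7 libraries and by 1.74 ± 0.09 on the log2 scale. Wnk1, the kinase whose kidney form acts upstream of Slc12a3, averaged 3509 ± 485 CPM against 6997 ± 705 CPM. In that cascade the log2 differences were -0.80 ± 0.09 for Wnk4, -1.20 ± 0.08 for Stk39, which encodes the kinase SPAK, and -0.77 ± 0.08 for Klhl3, the adaptor that marks WNK kinases for degradation, while Oxsr1, which encodes the kinase OSR1, did not pass (-0.12 ± 0.14). Egf, the precursor of the magnesium-regulating growth factor, was lower by 2.34 ± 0.28, and Fxyd2, the gamma subunit of the sodium pump, by 1.98 ± 0.13. Cnnm2 and Trpm7, both tied to magnesium handling, were at -0.88 ± 0.08 and -1.001 ± 0.11, and Cnnm4 did not pass (0.34 ± 0.26). The calcium pump gene Atp2b4 was lower by 0.92 ± 0.10, and Atp2b1 did not pass (-0.18 ± 0.12).

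By list, all 7 tested markers of the distal convoluted tubule were lower in the members, with a median log2 difference of -1.001 against -0.0028 over all genes tested. In the list of sodium, aldosterone and WNK genes 4 of 22 tested were higher and 9 lower, and below the Slc34a1 bound 5 of 21 were higher and 4 lower. Among 18 tested genes of calcium and magnesium 1 was higher, Prkca, which also lost its call below the bound and without any 1 of 5 libraries, and 6 were lower. Of 28 tested distal nephron transcription factors 8 were higher and 6 lower. The collecting duct factors Gata3 (0.52 ± 0.12), Pax2 (0.47 ± 0.12), Pax8 (0.65 ± 0.10) and Emx2 (0.73 ± 0.18) were among the higher ones, and Lhx1 (-1.15 ± 0.18), Esrrg (-0.59 ± 0.08) and Pou3f3 (-0.44 ± 0.12) among the lower. Hnf4a, a proximal tubule factor, was higher by 0.54 ± 0.09 and at 0.15 below the bound, where it was not called. Of the 17 proximal markers 14 were higher in all members and 1 of 15 below the bound.

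Beside Scnn1g, the rule for named genes gave Aqp2 (2.204 ± 0.21), Kif26b, a kinesin (1.90 ± 0.13), Tmem45b, Tmem178a, Acer2, an alkaline ceramidase, Samd5, Mpped2, Grik2, a kainate receptor subunit, and Apcdd1l as the largest increases. Each was higher in 7 of 7 libraries, and their log2 differences ran from 1.29 to 2.204. Beside Trpm6, Egf and Fxyd2 the largest decreases were Tmem266 (-2.34 ± 0.18), Arnt2, Cacna1a, a calcium channel subunit, Rbpjl, Setd7, Kctd1 and Adcy1, an adenylyl cyclase, each lower in 7 of 7. Aqp2 in the members ranged from 115 to 399 CPM and in the late distal convoluted tubule from 0 to 154 CPM, with 1 overlap between the lowest member library and the highest of the other class. The ammonia transporter genes Rhcg (0.62 ± 0.09) and Rhbg (1.02 ± 0.14) were also higher in the members, each in 7 of 7 libraries.

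**Figure D2:**
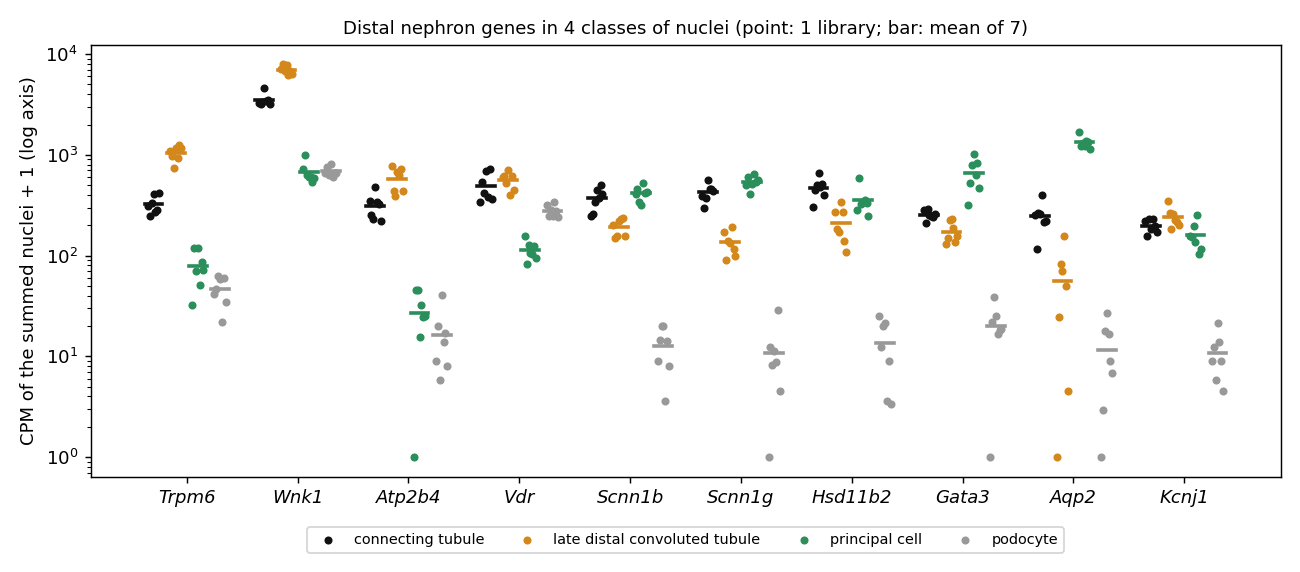
CPM plus 1 on a log axis of 10 genes in the summed nuclei of 4 classes, with 1 point per library and a bar at the mean of 7. For Trpm6, Wnk1 and Atp2b4 the members lie between the late distal convoluted tubule and the principal cells, and for Scnn1g they lie near the principal cells.

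Against the 639 principal cell nuclei, defined by at least 3 Aqp2 UMIs and at most 2 of Calb1 and Trpv5, the differences were wider. Of 6373 genes 2030 passed an edgeR adjusted p of 0.05 (31.9%), 1064 higher (16.7%) and 966 lower (15.2%) in the members. With Slc34a1 under the bound 1436 of 4741 passed (30.3%), 1249 of them also called in all members. In set P1117 alone 1292 passed, and without the library block 1344. Principal cell nuclei were few in 1-kidney replicates 1 and 2, with 14 and 32.

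In the calcium and magnesium list 9 of 18 tested genes were higher in the members and 6 lower. Atp2b4 averaged 313 ± 91.8 CPM in the members and 26.0 ± 16.0 CPM in principal cells (SD over 7 libraries), a log2 difference of 3.48 ± 0.20 and higher in 7 of 7 libraries. Klk1, the kallikrein that the connecting tubule secretes into urine, ran from 62.1 to 142 CPM in the members and from 0 to 13.3 CPM in principal cells. Its log2 difference was 4.47 ± 0.35, and 3 principal cell sums held no UMI of it. Vdr, the vitamin D receptor, was higher by 2.195 ± 0.14, Kl, the FGF23 co-receptor klotho, by 2.11 ± 0.12 and Pth1r, the parathyroid hormone receptor, by 0.96 ± 0.11. Trpm6 was higher by 2.08 ± 0.15. Among the 6 lower genes were the inositol trisphosphate receptors Itpr1 (-0.73 ± 0.11) and Itpr2 (-0.65 ± 0.11).

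The sodium channel subunits did not move together. Scnn1b averaged 369 ± 95.1 CPM in all members and 413 ± 69.4 CPM in principal cells, differed by -0.07 ± 0.12 and was not called. It was higher by 0.36 below the Slc34a1 bound (edgeR adjusted p = 0.042). Scnn1g was lower by 0.29 ± 0.11 (edgeR adjusted p = 0.044), and below the Slc34a1 bound the sign turned to 0.09 and it was not called. It also lost its call without 1-kidney replicate 2 or 2-kidney replicate 2, 3 or 4. Scnn1a was higher by 0.52 ± 0.12 and Hsd11b2 by 0.53 ± 0.12, each in 6 of 7 libraries. Wnk1 (2.48 ± 0.12), Wnk4 (1.37 ± 0.13) and Klhl3 (1.73 ± 0.12) were higher in the members in 7 of 7. In the sodium, aldosterone and WNK list 10 of 25 tested genes were higher and 5 lower, beside a median of 0.24 against 0.05 over all genes.

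Of 16 tested water and vasopressin genes 6 were lower in the members, 1 was higher and 9 did not pass. Aqp2 defined the principal cells and is left out. Aqp3 and Aqp4, the basolateral water channels, were lower by 2.11 ± 0.21 and 4.27 ± 0.19, with 16.4 ± 12.2 CPM of Aqp4 in the members and 370 ± 169 CPM in principal cells (SD over 7 libraries). Ednrb, the endothelin B receptor, was lower by 3.00 ± 0.25 and Ptger1, a prostaglandin receptor, by 0.93 ± 0.26. The higher gene was the phosphodiesterase gene Pde4d at 0.93 ± 0.10. Fxyd4 (-4.35 ± 0.18), a regulator of the sodium pump in the collecting duct, Nipal1 (-4.04 ± 0.15), Ptgs1, the cyclooxygenase-1 gene (-4.03 ± 0.22), and Lhfpl6 (-4.42 ± 0.16) were among the largest decreases. The other named decreases were Rgs6, Dclk1, Macc1, Slc4a5 and Hs3st3a1, and other named increases were Tmem52b, Stk32a, Emx1, Ror2, Sgsm1 and Dnm1.

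Of 36 tested distal nephron transcription factors 11 were higher and 16 lower in the members. Gata3 was at -1.37 ± 0.14, Pax2 at -1.30 ± 0.12, Pax8 at -1.13 ± 0.10, Ehf at -2.51 ± 0.20 and Hoxb9 at -1.75 ± 0.18, all lower in the members in 7 of 7 libraries. Emx1 (2.76 ± 0.22), Tfap2b (1.24 ± 0.17) and Esrrg (0.57 ± 0.10) were higher in 7 of 7. Of these, Gata3, Pax2 and Pax8 were also higher in members than in the late distal convoluted tubule, where Ehf did not pass (0.79 ± 0.29), Emx1 and Esrrg were lower and Hoxb9 was not tested. The receptor genes Egfr (-1.72 ± 0.14) and Fgfr2 (-1.68 ± 0.17) were lower too. Markers of other tubule types moved with this comparison. Of 8 tested intercalated markers 6 were higher in the members, among them Atp6v1b1, a proton pump subunit (2.04 ± 0.13), and of 17 proximal markers 16 were higher, 10 of 16 below the bound. Their part in the other differences was not tested.

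The members themselves were not uniform for Aqp2. No Aqp2 UMI was found in 595 of them, 1 UMI in 184 and 2 or more in 204. The 204 Aqp2-positive nuclei held a median of 3632.5 UMIs and the 595 Aqp2-negative ones 3041, and the Aqp2-positive sums rested on 12 to 40 nuclei per library. Of 3802 genes 111 passed an edgeR adjusted p of 0.05 between them (2.92%), 93 higher (2.45%) and 18 lower (0.473%) in the Aqp2-positive nuclei. Below the Slc34a1 bound 75 of 2101 passed (3.57%), 38 higher (1.81%) and 37 lower (1.76%), so the split between directions moved. Without the library block 42 passed. Without barcodes marked by the doublet score 77 passed, 72 of them among the 111. Leaving out 1-kidney replicate 2 gave 54 calls, 2-kidney replicate 1 gave 65 and 2-kidney replicate 2 gave 53.

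Members with Aqp2 held more Scnn1g and Scnn1b and less Trpm6, while Scnn1a did not pass (0.11 ± 0.15, and -0.28 below the Slc34a1 bound). Scnn1g stood at 1137, 608 and 518 CPM in the Aqp2-positive members of the 1-kidney libraries and at 803, 539, 618 and 533 CPM in those of the 2-kidney libraries. In Aqp2-negative members it ran from 182 to 460 CPM, below every Aqp2-positive value. The log2 difference was 0.99 ± 0.16 (edgeR adjusted p = 0.00055). Scnn1b was higher by 1.00 ± 0.17 in 7 of 7 libraries, Hsd11b2 by 0.75 ± 0.16 in 6 of 7 and Nr3c2 by 0.46 ± 0.12 in 7 of 7. The last 2 were not called below the Slc34a1 bound, with 0.35 and 0.13, or without 1-kidney replicate 2 or 2-kidney replicate 2. Trpm6 averaged 193 ± 69.9 CPM in Aqp2-positive and 398 ± 106 CPM in Aqp2-negative members (SD over 7 libraries), lower by 1.02 ± 0.16 in 7 of 7 libraries and by 1.598 below the bound.

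Of 27 transcription factors tested in all members 5 were higher with Aqp2 and none lower. Gata3 ranged from 304 to 737 CPM in Aqp2-positive and from 121 to 202 CPM in Aqp2-negative members, and the sets did not overlap (log2 difference 1.27 ± 0.16). Pax2, Pax8, Gata2 and Ehf were higher by 0.67 ± 0.14, 0.48 ± 0.12, 0.79 ± 0.19 and 1.30 ± 0.25. Without 1-kidney replicate 2 or 2-kidney replicate 2, Pax8 and Gata2 did not pass. Below the Slc34a1 bound Gata2 was at 0.36 and did not pass, and Emx2 passed in neither setting (0.74 ± 0.22 and 0.59). Esrrg did not pass in all members (-0.26 ± 0.13) and was lower by 0.60 below the bound (edgeR adjusted p = 0.0023). Fgfr2 was higher by 0.91 ± 0.24, the calcium pump gene Atp2b2 by 0.86 ± 0.17 and Rhcg by 1.03 ± 0.18, each in 7 of 7. The Fgfr2 call was lost without any 1 of 6 libraries and below the bound (0.66). Atp2b2 did not pass below the bound either (0.55, edgeR adjusted p = 0.051). Kif26b, Tmem45b, Acer2 and Mpped2, all higher in members than in the late distal convoluted tubule, were higher again in Aqp2-positive members, by 1.44, 1.37, 1.70 and 1.58. The other named increases were Slc6a17, Fanca, Fam3c, Tmtc2 and Tspan1. Gata3, Pax2, Pax8, Ehf and Fgfr2 were also higher, and Trpm6 lower, in principal cell nuclei than in all members. Hsd11b2 went the other way there, and Scnn1b did not pass. Whether principal cell RNA had a part in the Aqp2-positive nuclei was not tested.

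Wnk1, Klk1 and Atp2b4 did not pass between Aqp2-positive and Aqp2-negative nuclei in all members, at -0.40 ± 0.12, -0.79 ± 0.25 and -0.50 ± 0.19. Below the Slc34a1 bound all 3 were lower in the Aqp2-positive nuclei, by 0.75, 1.24 and 0.85 (edgeR adjusted p = 5.2e-05, 0.0059 and 0.00098). Among the named decreases were Emcn, an endothelial sialomucin (-1.17 ± 0.28), Il34, Arnt2, Megf11, Sh3tc2, Ccdc148, Aoah, Galnt14 and Arhgap10. Each of these lost its call in at least 1 of the fits with a library left out. Below the Slc34a1 bound Megf11 and Arhgap10 passed, Galnt14 did not (edgeR adjusted p = 0.39) and the rest of these were not tested. Slc12a1, the cotransporter of the thick ascending limb, was lower by 0.79 ± 0.16, and 1 of 17 proximal markers was lower, Lrp2 at -0.56 ± 0.16 in 5 of 7 libraries. Below the bound Lrp2 was at -0.04, while Slc12a1 was lower by 1.36 (edgeR adjusted p = 7.6e-07). Their part in the other differences was not tested.

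**Figure D3:**
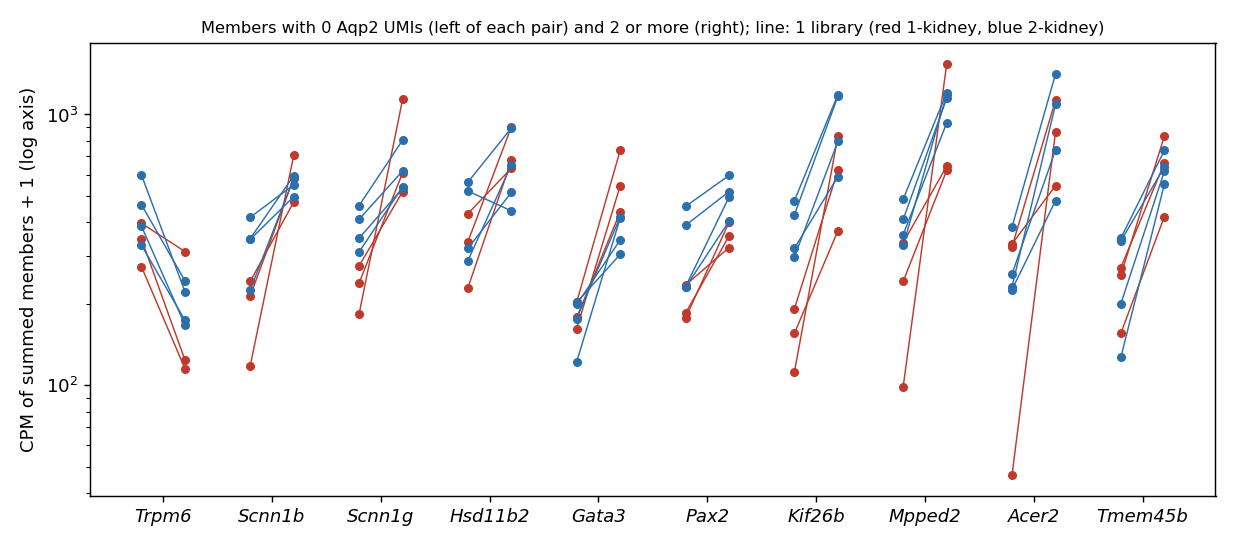
CPM plus 1 on a log axis of 10 genes in the summed members with 0 Aqp2 UMIs (left point of each pair) and with 2 or more (right point), with 1 line per library (red 1-kidney, blue 2-kidney). Trpm6 falls from left to right in 7 of 7 libraries, and Scnn1g, Gata3 and Kif26b rise in 7 of 7.

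The second question of the design was how the members differed between 1-kidney and 2-kidney animals. Of 7654 genes 48 passed an edgeR adjusted p of 0.05 (0.627%), 23 higher and 25 lower in the 1-kidney libraries, and 1396 (18.2%) had an unadjusted p under 0.05. The groups did not overlap for 1170 genes (15.3%). With Slc34a1 under the bound none of 4933 genes passed, and 510 (10.3%) had an unadjusted p under 0.05. Of the 48 genes 41 could be tested there and all 41 kept their sign. The median ratio of their log2 changes to those in all members was 0.803. The nuclei below the bound are part of the members in which the 48 were called, so neither value is independent support. The count moved with single libraries as well. It was 0, 4 and 23 without 1-kidney replicates 1, 2 and 3, and 371, 188, 6 and 16 without 2-kidney replicates 1, 2, 3 and 4. In set P1117 alone 12 genes passed, 8 of them among the 48. With the set as a term 13 passed, 10 of them among the 48.

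Sgk1 and Fkbp5, both known targets of the glucocorticoid receptor, rose in the 1-kidney members. Sgk1 encodes the kinase that keeps the epithelial sodium channel at the membrane, and it stood at 415, 364 and 360.3 CPM in the 1-kidney libraries and at 209, 241, 176 and 203 CPM in the 2-kidney libraries. The groups did not overlap, and the log2 change was 0.89 ± 0.18 (edgeR adjusted p = 0.038). Below the Slc34a1 bound the change was 1.16 (edgeR adjusted p = 0.080), at least as large as in all members. Fkbp5, a co-chaperone of the receptor, stood at 373, 367 and 346 CPM against 21.4, 117, 116 and 210 CPM. Its change was 1.62 ± 0.34 (edgeR adjusted p = 0.039), and 1.15 below the bound without passing. The lowest Fkbp5 value was that of 2-kidney replicate 1.

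In the glucocorticoid response list these 2 of 13 tested genes were higher and none lower. Of the 13, 12 had a change above 0, and the median was 0.74 against -0.006 over all genes tested. Below the Slc34a1 bound 8 were tested, 7 were above 0 and the median was 0.40. Other members did not pass in either setting, with Pdk4, a kinase of pyruvate metabolism, at 1.48 ± 0.39 and Tsc22d3, which encodes the protein GILZ, at 1.09 ± 0.41. Zbtb16, a transcription factor, varied within the 2-kidney group from 28.5 to 477 CPM. In the same nuclei Fkbp5 and Sgk1 were higher among those rich in Slc34a1, with 306 against 133 CPM for Fkbp5 and 311 against 231 CPM for Sgk1 in the sums over all libraries. Apart from the values below the bound, the part of proximal RNA in these changes was not tested.

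Of 17 proximal tubule markers 3 rose. Slc27a2, a fatty acid transporter, stood at 845, 749 and 722 CPM in the 1-kidney and at 415, 463, 360.2 and 312 CPM in the 2-kidney members, a change of 1.01 ± 0.19. Slc5a12, a lactate transporter, rose by 1.09 ± 0.23, and Slc4a4, the basolateral bicarbonate cotransporter, by 0.97 ± 0.22. Of the 17 markers 15 were above 0, and the median was 0.40. Below the bound none passed and the median was 0.08, while the changes of the 3 were 0.87, 0.75 and 0.46. G6pc, the catalytic subunit of glucose-6-phosphatase, rose by 1.58 ± 0.32 and was at 1.74 below the bound (edgeR adjusted p = 0.080). Slc34a1 itself was at 0.94 ± 0.30 and did not pass.

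The remaining named increases were Kcnh5, a potassium channel gene (2.40 ± 0.35), Tdrp (1.42 ± 0.22), Prr15l (2.39 ± 0.40), Por, the electron donor of cytochrome P450 enzymes (1.12 ± 0.20), Cttnbp2 (1.24 ± 0.24), Nop14, a ribosome assembly factor (1.30 ± 0.26), and Ube2d2, a ubiquitin-conjugating enzyme (0.99 ± 0.20). For Kcnh5 the 1-kidney values were 112, 77.1 and 57.9 CPM and the 2-kidney values 23.7, 20.2, 10.6 and 8.39 CPM, so no value overlapped. Kcnh5 and Prr15l had too few counts to be tested below the Slc34a1 bound. Cttnbp2 was at 0.49 there, and Por at 0.92.

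**Figure D4:**
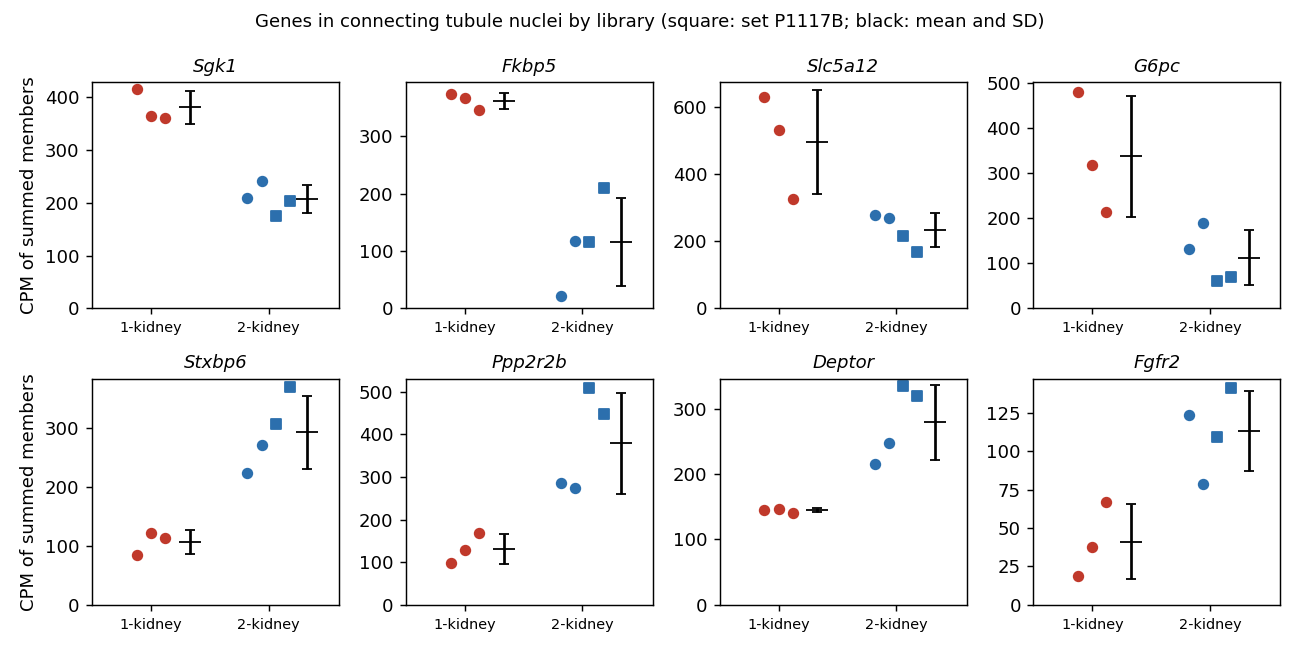
CPM of 8 genes in the summed members of each library (red 1-kidney, blue 2-kidney, squares for set P1117B), with the group mean and SD in black. The 8 genes were picked from those reported as changed between the groups, and for each the groups do not overlap. Over all genes tested that held for 1170 of 7654 (15.3%). The 2-kidney libraries of set P1117B lie farther from the 1-kidney libraries than those of set P1117 for Sgk1, Stxbp6 and Deptor. They do not for Fkbp5 and Fgfr2.

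Among the genes that fell, Stxbp6, which encodes the vesicle fusion protein amisyn, had the smallest p. It stood at 84.0, 122 and 114 CPM in the 1-kidney and at 223, 271, 307 and 369 CPM in the 2-kidney members, and fell by 1.39 ± 0.21 on the log2 scale (edgeR adjusted p = 0.0057). Ppp2r2b, a regulatory subunit of protein phosphatase 2A, fell by 1.48 ± 0.24. Both were near the threshold below the Slc34a1 bound, at -1.22 and -1.33 (edgeR adjusted p = 0.080 for each). Deptor, an inhibitor of the mTOR kinase, stood at 145, 147 and 141 CPM against 216, 247, 335 and 319 CPM, a change of -0.94 ± 0.20. Fgfr2, a receptor for fibroblast growth factors, stood at 18.7, 37.4 and 67.0 CPM against 123, 78.9, 109 and 141 CPM, a change of -1.33 ± 0.28. Below the bound Deptor was at -0.87 and Fgfr2 at -0.90, and neither passed.

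In the list of growth factors and receptors these 2 of 32 tested genes fell and none rose, beside a median of -0.04. Irs1, the insulin receptor substrate, was at -0.96 ± 0.24 and did not pass. Me3, the mitochondrial malic enzyme (-1.05 ± 0.20), Syt17 (-1.25 ± 0.24), Tmem117 (-1.17 ± 0.23), Nxn, nucleoredoxin (-1.13 ± 0.23), Tmem178a (-0.93 ± 0.19), Efhd1, a mitochondrial calcium-binding protein (-0.94 ± 0.20), and Vav3 (-1.03 ± 0.22) were the other named decreases. Kif26b and Ephb2, an ephrin receptor, fell by 0.96 ± 0.21 and 1.25 ± 0.28. Kif26b, Tmem178a and Fgfr2 were also among the genes higher in members than in 1 of the neighbouring classes or in Aqp2-positive than in Aqp2-negative members. Aqp2-positive nuclei numbered 12, 20 and 40 among the 1-kidney and 23, 37, 39 and 33 among the 2-kidney members, and their part in these changes was not tested.

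**Figure D5:**
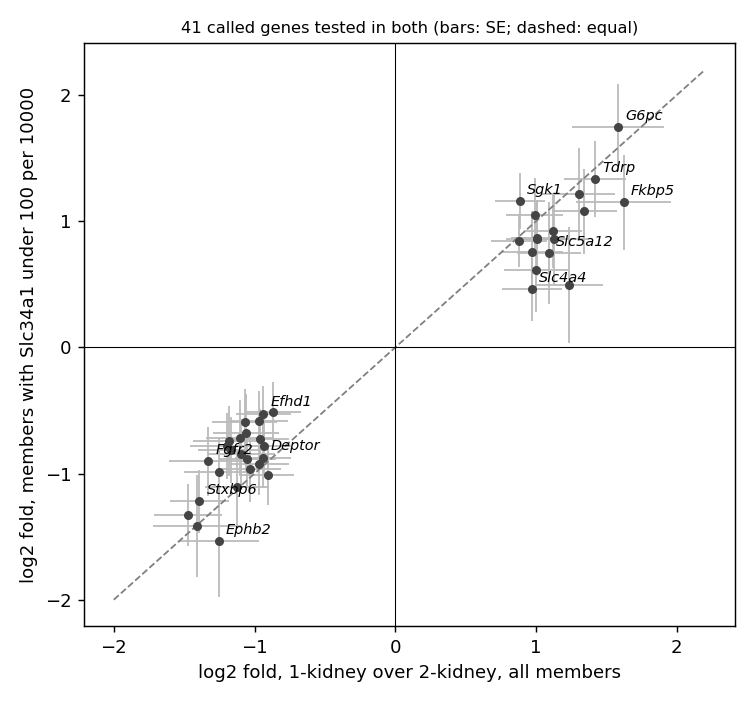
Log2 change, 1-kidney over 2-kidney, of the 41 called genes that could be tested in both settings, in all members (horizontal) and in members with Slc34a1 under 100 per 10000 UMIs (vertical), with bars for the SE and a dashed line of equality. The nuclei of the vertical axis are part of those of the horizontal axis, so the 2 are not independent. All 41 lie in the quadrants of equal sign. Slc4a4 and Cttnbp2 lie on the side of a smaller change below the bound, and Sgk1 on the side of a larger one.

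Most functional lists held no gene that passed between the groups. Over all 7654 genes 0.627% passed, so lists of this size would rarely hold 1, and their counts say little about the lists. Of 21 tested genes of calcium and magnesium none passed, 7 were above 0 and the median was -0.18. Trpm6 was at -0.20 ± 0.20, Kl at -0.38 ± 0.19 and Atp2b1 at 0.07 ± 0.18. In the sodium, aldosterone and WNK list Sgk1 alone of 26 passed. The receptor Nr3c2 was at -0.83 ± 0.21 (edgeR adjusted p = 0.070), with 910.2 to 1584 CPM in the 1-kidney and 1825 to 2628 CPM in the 2-kidney members and no overlap, and at -0.51 below the Slc34a1 bound. Scnn1a, Scnn1b and Scnn1g were at 0.40 ± 0.19, -0.60 ± 0.19 and -0.44 ± 0.18, and Klhl3 at -0.68 ± 0.20. Aqp2 was at -0.40 ± 0.28. None of 17 water and vasopressin genes, 10 potassium channels and 36 transcription factors passed.

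Lists that describe cell state held no gene that passed either, beside the same 0.627% over all genes. None of 20 tested genes of the unfolded protein response passed, 15 were above 0, and Hspa5, the chaperone BiP, was at 1.07 ± 0.30. None of 25 fatty acid oxidation genes passed and 21 were above 0, a list shared with the proximal tubule. None of 15 immediate early and heat shock genes, 7 cell cycle genes and 5 tubular injury genes passed. The 9 tested intercalated markers were all below 0 with a median of -0.62, and none passed, with Slc26a4, the chloride-bicarbonate exchanger pendrin, at -1.09 ± 0.32 and Slc4a9 at -1.49 ± 0.38. In the sums the intercalated markers were at 1431 to 1874 CPM in the 1-kidney and 2095 to 2725 CPM in the 2-kidney members, and the groups did not overlap. Below the Slc34a1 bound they were at 2518 to 2974 and 2639 to 3456 CPM, and the groups overlapped.

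Whether the 1-kidney change differed between the members and the late distal convoluted tubule was tested with an interaction term. Of 5849 genes 2 passed an edgeR adjusted p of 0.05 (0.0342%), Ptprb and Pde4d, and 297 (5.08%) had an unadjusted p under 0.05. Pde4d, a cyclic AMP phosphodiesterase, averaged 2125 ± 22.7 CPM in the 1-kidney and 2149 ± 449 CPM in the 2-kidney members, and 2636 ± 306 against 4180 ± 1024 CPM in the late distal convoluted tubule (SD, n = 3 and 4). The difference between the changes was 0.67 ± 0.13. Ptprb, a receptor phosphatase of endothelial cells, averaged 97.7 ± 41.1 against 50.3 ± 10.2 CPM in the members and 19.3 ± 17.1 against 63.7 ± 12.1 CPM in the late distal convoluted tubule, a difference of 2.42 ± 0.49. Both calls were lost without 1-kidney replicate 1 or 2 or 2-kidney replicate 1 or 3. Endothelial markers summed to 187 to 414 CPM in the 1-kidney and 174 to 330 CPM in the 2-kidney members, and to 129 to 276 and 239 to 324 CPM in the late distal convoluted tubule. Slc26a4 (-2.38 ± 0.57), Fnbp1 (1.27 ± 0.32) and Wls (-0.75 ± 0.19) came next and did not pass, and below the Slc34a1 bound no gene passed, while 188 of 4974 (3.78%) had an unadjusted p under 0.05.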

How the data were processed

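The authors deposited whole-number UMI counts per gene and nucleus for 7 libraries, made with Cell Ranger 7.0 per the submitters' processing notes. No source used here gives the build or the annotation, so no coordinate or sequence is printed. Gene names are those the files pair with their identifiers. Kept nuclei had at least 200 genes, at most 10000 UMIs and at most 5% mitochondrial UMIs. No clustering was used, and classes were set by UMI bounds. Doublets stayed in the main results. Scrublet (scanpy 1.11.5) at its automatic threshold had not worked, so its score marked an expected 0.8% of barcodes for each 1000 barcodes of a library in an alternative.

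Counts were summed per library and class and tested with edgeR 4.0.16 in R 4.3.3 (TMM scaling, expression filter, quasi-likelihood test, Benjamini-Hochberg adjustment over all genes tested, threshold 0.05). Comparisons of classes kept the library as a block, since both classes came from the same animal. The SE is the log2 change divided by the root of F. Comparisons of shares used exact two-sided permutation over libraries, and Wilson intervals were computed with scipy 1.17.1. Thinned values drew 1000 UMIs per nucleus, with a criterion of 2 UMIs for Calb1 and Trpv5, and left out shallower nuclei. The scripts were tested on simulated data. Alternatives were another scaling, DESeq2 1.42.0, no filter, other bounds, set P1117 alone, each library left out and, added after seeing the data, Slc34a1 under 100 per 10000.

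Named genes were the 10 with the smallest p in each direction between kidney groups. For classes they were the 10 with the largest change in each direction that passed, reached 50 CPM and agreed in sign in 7 libraries, and for the interaction the 5 with the smallest p. List members came in addition, and gene models without a gene symbol are not named. A few genes that the rule or lists gave are not reported here. The members, lists and markers were chosen with earlier results of these data known. Nothing in the labels says beyond the title numbers that libraries come from separate animals, so p-values measure the spread between these libraries. Of the symbols searched, 10 are not analysed here.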

Additional observations from a re-analysis of the deposited data

Results flagged for a closer look

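Hspa5, the chaperone BiP, had 1 library apart from the rest of its group. In the 2-kidney members replicate 2 stood at 253 CPM and the other 3 at 107 to 128 CPM, a gap of 0.859 of the group's range. Scnn1g had a similar gap of 0.857, with replicate 1 at 567 CPM and the others at 441 to 459 CPM. Of 57 groups of 4 libraries examined 2 passed Dixon's 95% critical value, and chance alone flags about 1 in 20 such groups.

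Pde4d and Ptprb differed in their 1-kidney change between the members and the late distal convoluted tubule, by 0.67 and 2.42 on the log2 scale in edgeR's interaction test (adjusted p = 0.0151 for each). Neither passed below the Slc34a1 bound, with 0.46 and 3.28 and adjusted p of 0.999 and 0.536. The Ptprb counts were low in the late distal convoluted tubule of the 1-kidney libraries, where replicate 1 had 0 CPM.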

How the results depend on the processing

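The difference in the share of members, 1.01 percentage points, became -0.032 below the Slc34a1 bound and 0.153 there in set P1117. It ran from 0.456 to 1.35 with each library left out. After thinning the difference was 1.04 points, 0.377 below the Slc34a1 bound and 0.539 there in set P1117. The share below the Slc12a3 bound differed by -0.086 points, by 0.423 without barcodes marked by Scrublet, by 1.87 with a bound of 80, and by -2.05 to 2.26 with each library left out. With Slc34a1 under its bound that share differed by -2.42 points, and by -3.86 there in set P1117. Calls between kidney groups numbered 115 with DESeq2, 290 without a filter, 12 with an Slc12a3 bound of 20, 12 in set P1117, 13 with the set as a term, 0 below the Slc34a1 bound and 1 there in set P1117, and 0 to 371 with each library left out. Against the late distal convoluted tubule they numbered 459 with DESeq2, 436 with at least 5 UMIs of Calb1 and Trpv5, 410 with the bound of 20, 450 in set P1117, 427 below the Slc34a1 bound and 265 there in set P1117. Against principal cells they numbered 1292 in set P1117 and 830 there below the bound. Between Aqp2-positive and Aqp2-negative members they numbered 72 with DESeq2, 171 without a filter, 65 with at least 5 UMIs, 70 with the bound of 20, 153 in set P1117 and 43 there below the Slc34a1 bound, and 53 to 130 with each library left out. The interaction gave 0 with DESeq2, Scrublet, the bound of 20 and the Slc34a1 bound, 4 with at least 5 UMIs, 1 in set P1117 with or without the Slc34a1 bound, and 0 to 5 with each library left out. Without the replicate block of library, calls fell to 206, 1344 and 42. No paired analysis was possible because the replicate numbers of the kidney groups only follow accession order. The cause of these shifts was not tested.

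Signs turned for a few genes. Nr3c2 against the late distal convoluted tubule, at -0.04, was at 0.040 without a filter, 0.017 with Scrublet, 0.24 with the bound of 20, 0.33 below the Slc34a1 bound and 0.37 there in set P1117. Scnn1a was at 0.046 and 0.070 in the last pair of settings. Against principal cells Scnn1b was at 0.089 with at least 5 UMIs, 0.0090 with the bound of 20, 0.36 and 0.32 below the Slc34a1 bound, and 0.016 and 0.0038 without 1-kidney or 2-kidney replicate 2 (with each library left out, -0.18 to 0.016), while Scnn1g was at 0.086 and 0.14. Sgk1 against the late distal convoluted tubule was at -0.037 with at least 5 UMIs and ran from -0.029 to 0.13 with each library left out. Scnn1a between Aqp2-positive and Aqp2-negative members was at -0.0012 without a filter, -0.28 below the Slc34a1 bound and -0.22 there in set P1117. The Slc26a4 interaction was at 0.81 below the bound in set P1117. Of the other alternative values for single genes 3114 kept their direction and side of the threshold, 532 kept the direction and lost the call and 51 gained one.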
